A study of Mus musculus with 46 samples.

Results

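The livers of 6 virgin SKH:QS mice given sunscreen with zinc oxide nanoparticles (nano ZnO) were compared with the livers of 6 virgin SKH:QS mice given the same sunscreen base with no particles (formulation). These 12 arrays, 1 per mouse, were chosen by the titles of the samples, out of 46 arrays in the series. SKH:QS is a hairless laboratory stock, which lets a cream be put on bare skin. The zinc of the particles was the stable isotope 68Zn. The cream went onto the back in 6 applications during 4 days, and liver was taken on day 5 after an injection of xylase and ketamine followed by cervical dislocation. The protocol describes collars that kept mice from licking off the cream, single housing and a fixed light cycle for the whole study. The hour at which a mouse was killed is not given in the sources used here. The other virgin groups, 6 mice given zinc oxide microparticles in the same base (micro ZnO) and 6 untreated mice, entered the same model. Pregnant mice of the second experiment were at about day 17 of gestation. Their 6 nano ZnO and 6 formulation arrays were used for the same comparison and for its difference from virgin mice. Another 5 micro ZnO and 5 untreated pregnant arrays entered those models. Titles number the mice of a group as biological replicates. Nothing says whether they came from separate litters or were handled on separate days, so p-values measure the spread among these mice alone.

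Whole liver is mostly hepatocytes by RNA, with Kupffer cells, endothelium, stellate cells, bile duct cells and blood leukocytes beside them. Several gene programs that bear on the results change quickly in this tissue. Immediate early genes such as Fos and Jun encode AP-1 and other transcription factors that are transcribed within minutes of a stimulus, without new protein synthesis. The hepatic clock runs on a loop in which ARNTL and CLOCK act through E-boxes on Per, Cry, Nr1d, Ciart and Dbp genes. REV-ERB and ROR receptors feed back on Arntl and Nfil3, and DBP, TEF and HLF oppose NFIL3 at D-boxes. Cholesterol synthesis genes are driven together by SREBP2 with the CCAAT-binding factor NF-Y, and fatty acid oxidation genes by PPARA.

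Promoters of 6 genes from these programs are shown because each carries, in capitals, a textbook element of its program. They come from RefSeq with the assembly GRCm38.p6. Each is 300 bases long, runs 5′ to 3′ on the strand of the gene, and covers 250 bases before the annotated start to 50 after it.
Fos, chr12:85473640-85473939: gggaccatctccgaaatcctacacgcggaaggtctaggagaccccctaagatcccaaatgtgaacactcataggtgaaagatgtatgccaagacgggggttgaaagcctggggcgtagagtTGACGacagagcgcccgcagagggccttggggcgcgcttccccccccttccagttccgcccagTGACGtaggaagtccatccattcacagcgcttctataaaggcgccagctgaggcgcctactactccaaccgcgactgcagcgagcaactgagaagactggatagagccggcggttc
Btg2, chr1:134079106-134079405: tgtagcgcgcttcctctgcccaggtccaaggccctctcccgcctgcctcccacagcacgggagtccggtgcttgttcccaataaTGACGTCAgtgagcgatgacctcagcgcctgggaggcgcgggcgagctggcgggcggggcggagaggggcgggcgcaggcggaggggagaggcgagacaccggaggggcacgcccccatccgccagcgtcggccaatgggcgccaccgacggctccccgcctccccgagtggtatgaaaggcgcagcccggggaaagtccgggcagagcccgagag
Ciart, chr3:95882179-95882478: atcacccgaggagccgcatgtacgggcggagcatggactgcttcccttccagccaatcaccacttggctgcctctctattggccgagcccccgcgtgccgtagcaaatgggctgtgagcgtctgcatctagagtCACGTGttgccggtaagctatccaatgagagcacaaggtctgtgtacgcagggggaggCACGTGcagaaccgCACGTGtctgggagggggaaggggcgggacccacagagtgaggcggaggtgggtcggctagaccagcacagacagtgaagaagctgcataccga
Per3, chr4:151044616-151044915: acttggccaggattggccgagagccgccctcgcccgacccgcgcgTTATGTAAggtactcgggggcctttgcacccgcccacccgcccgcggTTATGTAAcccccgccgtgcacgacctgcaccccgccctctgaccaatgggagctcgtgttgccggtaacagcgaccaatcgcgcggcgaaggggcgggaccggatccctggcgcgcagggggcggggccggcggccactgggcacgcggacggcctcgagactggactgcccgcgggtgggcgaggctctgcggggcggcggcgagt
Arntl, chr7:113207261-113207560: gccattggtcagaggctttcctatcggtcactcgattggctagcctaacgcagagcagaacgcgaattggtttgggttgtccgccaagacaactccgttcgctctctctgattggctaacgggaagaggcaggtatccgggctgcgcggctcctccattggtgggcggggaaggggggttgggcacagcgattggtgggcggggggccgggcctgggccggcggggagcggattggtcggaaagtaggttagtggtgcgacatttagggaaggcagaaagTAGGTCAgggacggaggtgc
Msmo1, chr8:64733529-64733828: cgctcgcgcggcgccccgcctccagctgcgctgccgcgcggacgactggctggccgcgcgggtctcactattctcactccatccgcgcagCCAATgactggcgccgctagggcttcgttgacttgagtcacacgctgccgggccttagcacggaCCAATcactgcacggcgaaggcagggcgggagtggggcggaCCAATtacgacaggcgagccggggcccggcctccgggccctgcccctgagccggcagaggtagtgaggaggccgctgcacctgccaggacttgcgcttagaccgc
Fos, on the forward strand of chromosome 12, holds the cAMP response element core TGACG at 2 places, and Btg2, on the reverse strand of chromosome 1, holds the full element TGACGTCA once. The core lies within the full element, so every promoter with TGACGTCA also counts for TGACG. Ciart, on the reverse strand of chromosome 3, holds the E-box CACGTG at 3 places, and Per3, on the reverse strand of chromosome 4, holds the D-box TTATGTAA at 2. Arntl, on the forward strand of chromosome 7, has 2 annotated windows. The window shown holds the REV-ERB and ROR half-site TAGGTCA once, and no match was found in the other. Msmo1, on the reverse strand of chromosome 8, holds CCAAT at 3 places. Among 32851 promoter windows of this length, searched on both strands, TGACG is found in 20.8%, TGACGTCA in 1.79%, CACGTG in 7.15%, TTATGTAA in 0.938%, TAGGTCA in 2.61% and CCAAT in 37.4%. A match is a run of letters and does not show that a factor was bound in these livers.

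The 24 virgin arrays correlated with each other at 0.968 to 0.989, and their medians ran from 4.66 to 4.90. Hepatocyte markers such as albumin and apolipoprotein genes were high in both arms. Their mean level was 12.42 to 12.51 on formulation arrays and 12.44 to 12.58 on nano ZnO arrays, and 0 of 11 were called. Array width, the interquartile range of the log2 values, ran from 2.76 to 2.89 in formulation and from 2.84 to 2.99 in nano ZnO. The mean difference of 0.07 had an exact permutation p of 0.0671 (two-sided, 924 splits of 12 arrays), so it did not pass 0.05. A clock score, the mean of 9 clock transcripts minus the mean of 3 that run opposite, spread from -1.28 to 0.91 over formulation arrays and from 0.68 to 1.34 over nano ZnO arrays. Both measures were higher on average in nano ZnO. For each list with more than 2 called members, the count with each measure as a covariate is given beside it where it moved by over 1.5 times. Lists were chosen with earlier results of these data known, which may raise their shares of calls above that over all probe sets.

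Among the transcripts called between the arms, more were higher than lower in nano ZnO livers. Rises included genes of sterol synthesis, fatty acid oxidation, bile acid handling and clock output. Of the 15 largest falls, 6 were immediate early genes, with Fos and Jun first, and the others included Igfbp1, Nfil3 and Arntl. Of 23410 probe sets with a gene symbol, 760 were called (3.25%) at an adjusted p under 0.05 in limma, with 591 higher (2.52%) and 169 lower (0.722%) in nano ZnO. Most differences were small, with a median size of 0.37 on the log2 scale among called probe sets, and 68 (0.29%) reached 1.5-fold, 46 of them higher and 22 lower. The 6 nano ZnO arrays lay wholly above or wholly below the 6 formulation arrays for 426 probe sets (1.82%), and 277 of these were among the 760 called. Called probe sets that were higher had a median level of 7.35, against 5.30 for those that were lower and 5.17 over all tested. With probe sets under the 40th percentile of mean signal left out, 990 were called, 811 of them higher. The share higher over all probe sets is thus a low standard for lists of strongly expressed genes. Such lists include bile acid, cholesterol synthesis, respiratory chain and cytochrome P450 genes, at mean levels of 9.1, 9.3, 9.5 and 9.5 in formulation. The median change over all tested probe sets was -0.0046. After a further quantile normalization 760 were again called, 601 of them the same, but 65% rather than 77.8% were higher (494 higher, 266 lower). With array width as a covariate 156 were called, of which 118 were among the 760, and 57.7% were higher. With the clock score as a covariate 582 were called, 323 of them among the 760. The count fell by over 1.5 times when formulation replicate 1 (495), 2 (396), 5 (427) or 6 (486) or nano ZnO replicate 1 (374), 5 (499) or 6 (251) was left out.

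**Figure D1:**
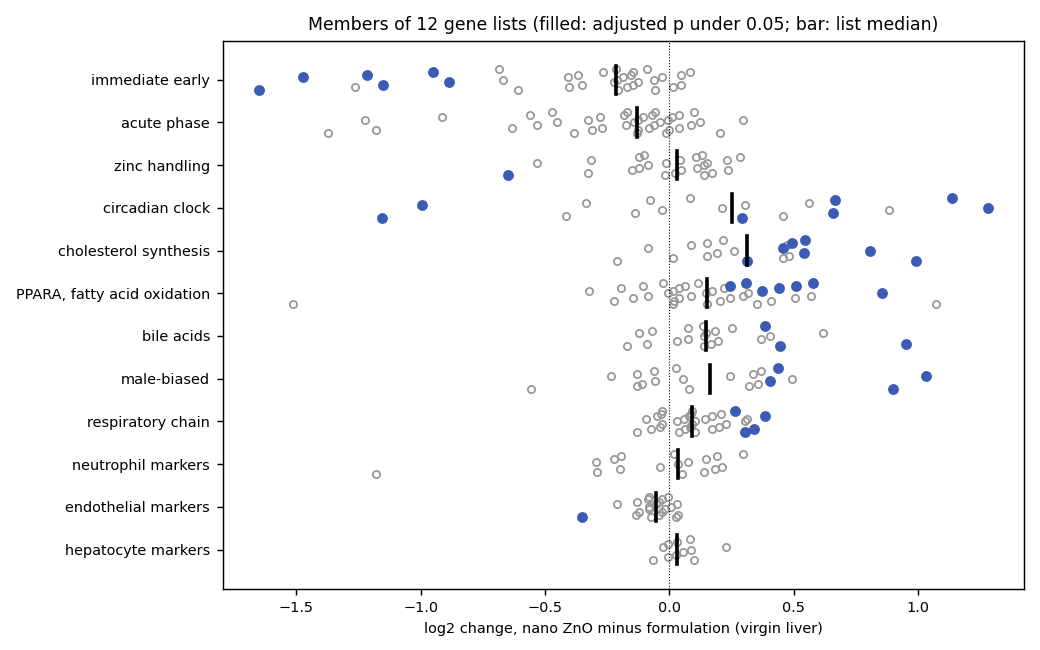
Log2 change of each measured member of 12 gene lists, nano ZnO minus formulation in virgin liver (horizontal axis), with filled points for members called at an adjusted p under 0.05, open points for the rest and a bar at the list median. Immediate early members lie mostly left of 0 with 6 called, cholesterol synthesis members mostly right of 0 with 7 called, and the acute-phase, neutrophil and hepatocyte lists have no called member.

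Immediate early transcripts stood among the largest falls, with Fos and Jun first. Of 33 measured, 6 fell, none rose and 27 were not called, a share of 18.2% against 0.722% lower over all probe sets, with a list median of -0.21 against -0.0046. Fos, a subunit of the AP-1 transcription factor, ranged over 5.91 to 8.45 (median 7.71) in formulation and 5.16 to 6.72 (median 5.92) in nano ZnO. Formulation replicate 3, at 5.91, lay among the nano ZnO arrays, and the other 5 formulation arrays, at 7.36 or more, lay above all of them. The change was -1.65 ± 0.31 (± SE), a 3.14-fold lower level, with a limma adjusted p of 0.00545. Jun, the partner of Fos in AP-1, ranged over 8.44 to 9.27 (median 8.92) in formulation and 6.57 to 8.60 (median 7.26) in nano ZnO. Nano ZnO replicates 1, 5 and 6 were at 6.57 to 6.67 and replicates 2, 3 and 4 at 7.85 to 8.60, so that 5 of 6 lay below every formulation array. Jun fell by 1.47 ± 0.29 (adjusted p = 0.00711).

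Btg2, an antiproliferative early-response gene, ranged over 7.13 to 8.47 (median 7.98) in formulation and 5.61 to 7.68 (median 6.53) in nano ZnO, with 4 of 6 nano ZnO arrays below every formulation array. It fell by 1.22 ± 0.25 (adjusted p = 0.00898). Atf3, a stress-induced transcription factor, ranged over 6.68 to 7.75 (median 7.56) against 5.44 to 7.42 (median 6.01) and fell by 1.15 ± 0.24 (adjusted p = 0.00989). Nr4a1, an orphan nuclear receptor induced within minutes of stimulation, ranged over 5.73 to 6.68 (median 6.13) against 4.53 to 6.07 (median 5.04) and fell by 0.95 ± 0.19. Ier2, a small nuclear early-response protein, ranged over 6.47 to 8.20 (median 7.75) against 5.96 to 7.26 (median 6.80) and fell by 0.89 ± 0.24. In all 4 genes the arms overlapped, through 1 to 3 nano ZnO arrays that reached formulation values. For Ier2 the nano ZnO median of 6.80 lay above the lowest formulation value, 6.47. The cAMP response element core TGACG was found in 4 of the 5 promoters of the group that could be matched, those of Fos, Btg2, Atf3 and Nr4a1, with no entry for Ier2. It was also in 3 of 6 matched promoters of cholesterol synthesis genes that rose. Among called clock genes it was in 1 of 5 that rose and 1 of 2 that fell. Over all promoter windows the share was 20.8%. Egr1, a zinc-finger early-response factor, was at -1.27 without a call (adjusted p = 0.0893). Formulation replicate 3 held its lowest formulation value, 5.63 against 7.20 to 8.47 in the other 5, and without that array Egr1 was called at -1.66. The mRNA-decay factor Zfp36 was at 7.56 on the same array, against 8.94 to 9.38 on the other formulation arrays, and moved from -0.69 without a call to -0.95 with one when it was left out. Jund, a further AP-1 subunit, was at -0.41 without a call and was called at -0.48 without nano ZnO replicate 2. Dusp1, a MAP kinase phosphatase, was at -0.19 ± 0.30 and not called.

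For Fos, Jun, Btg2, Atf3 and Nr4a1 the call held in all 12 fits that left out 1 array, and Ier2 lost it in 7 of them (-0.86 to -0.75). With array width as a covariate 0 of the 6 stayed called, at -1.25 for Fos and -1.12 for Jun. Of the 33 genes 2 were called on the 12 arrays alone and 3 when the clock score was a covariate. The micro ZnO and untreated arms give the other levels of the scale. Fos averaged 5.43 in untreated, 7.57 in formulation, 5.58 in micro ZnO and 5.92 in nano ZnO livers, and Jun 6.12, 8.91, 6.62 and 7.43 in the same order. Formulation was thus the arm with the highest mean for both genes. Micro minus formulation, which shares the 6 formulation arrays, gave -2.00 ± 0.31 for Fos and -2.28 ± 0.29 for Jun.

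**Figure D2:**
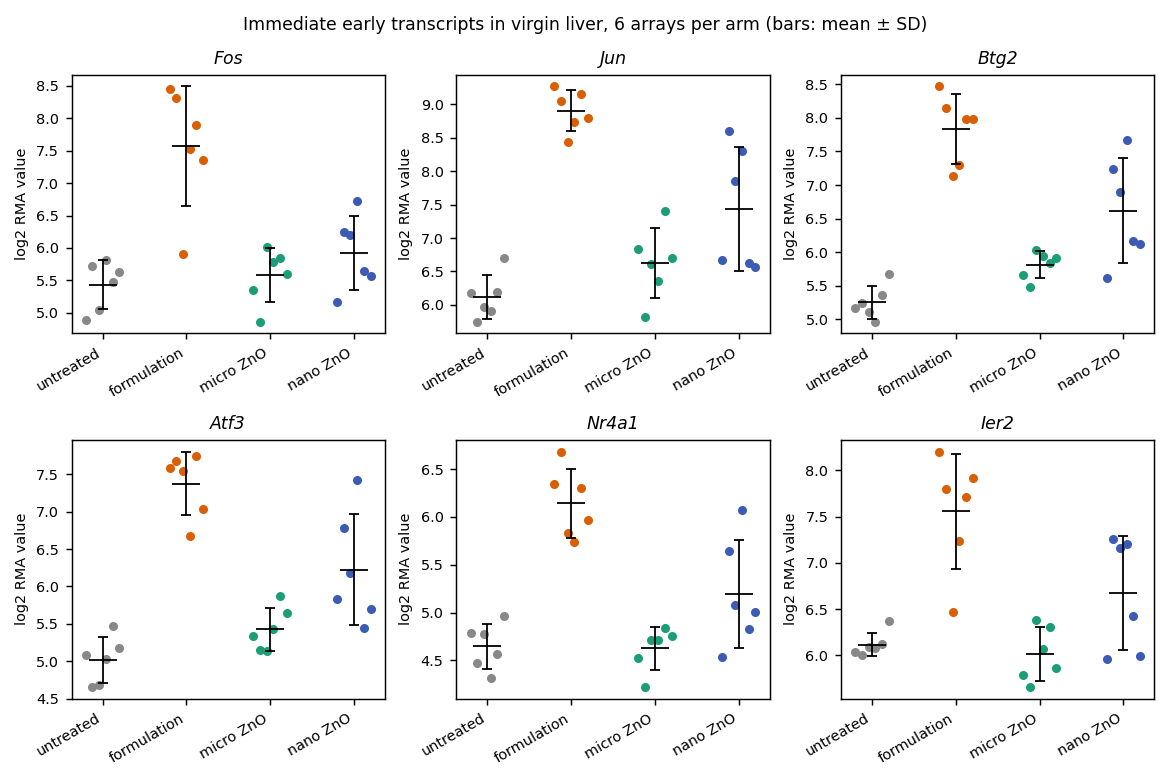
Log2 RMA values of Fos, Jun, Btg2, Atf3, Nr4a1 and Ier2 on the vertical axes, with 1 point per mouse in the 4 virgin arms and a bar at the mean ± SD of 6 arrays. Formulation has the highest mean in each panel, and nano ZnO Jun points split between 6.57 to 6.67 and 7.85 to 8.60.

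Among the 15 largest falls, 6 genes were on none of the lists. Zfp36l1, an mRNA-decay factor related to Zfp36, ranged over 8.12 to 9.38 (median 9.01) in formulation and 7.50 to 8.49 (median 8.11) in nano ZnO. It fell by 0.84 ± 0.17 (adjusted p = 0.00857). The call held with each array left out but was lost with the clock score as a covariate (-0.47). Gadd45a, a DNA damage and stress response gene, fell by 0.84 ± 0.23, and Irf2bp2, a transcriptional corepressor, fell by 0.70 ± 0.17. Rnf125, a ubiquitin ligase, ranged over 9.01 to 10.15 (median 9.55) against 8.30 to 9.41 (median 8.62) and fell by 0.85 ± 0.19 (adjusted p = 0.0123), with 5 of 6 nano ZnO arrays below every formulation array. Krt18, a keratin of hepatocytes and bile duct cells, fell by 0.65 ± 0.15, and Mme, the cell surface peptidase neprilysin, fell by 0.67 ± 0.19. Gadd45a and Mme each lost the call in 9 of 12 fits that left out 1 array, over -0.91 to -0.65 and -0.74 to -0.54. Irf2bp2 lost it without formulation replicate 2 (-0.65) or nano ZnO replicate 1 (-0.59), and Krt18 without formulation replicate 1 (-0.56).

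Clock transcripts moved in both directions, with output genes of the E-box limb higher and Arntl and Nfil3 lower in nano ZnO. Calls were made for 7 of 18 measured clock genes, 5 of them higher and 2 lower, a share of 38.9% against 3.25% over all probe sets, with a median of 0.25. Ciart, a repressor of ARNTL and CLOCK, ranged over 5.01 to 6.71 (median 5.91) in formulation and 6.53 to 7.88 (median 7.00) in nano ZnO. Of the 6 nano ZnO arrays, 5 lay above every formulation array. Ciart rose by 1.28 ± 0.31, 2.43-fold (adjusted p = 0.0205). A second probe set of Ciart was at 0.85 without a call (adjusted p = 0.107). Dbp, a transcription factor that acts at D-boxes, ranged over 5.70 to 7.59 (median 6.82) against 7.47 to 8.11 (median 7.88), again with 5 of 6 nano ZnO arrays above, and rose by 1.14 ± 0.32 (adjusted p = 0.0468). Tef and Hlf, the D-box factors related to Dbp, rose by 0.67 ± 0.14 and 0.29 ± 0.07. Per3, a period protein, ranged over 4.90 to 5.75 (median 5.40) in formulation and 5.88 to 6.18 (median 5.96) in nano ZnO with no overlap and rose by 0.66 ± 0.17 (adjusted p = 0.0298).

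Nfil3, the repressor that competes with Dbp, Tef and Hlf, ranged over 6.40 to 7.94 (median 7.33) in formulation and 5.89 to 6.61 (median 6.00) in nano ZnO and fell by 1.16 ± 0.22 (adjusted p = 0.00545). Its formulation values were in 2 clumps, with replicates 1 to 3 at 7.68 to 7.94 and the other 3 at 6.40 to 6.98. Arntl, the obligate partner of CLOCK, ranged over 5.50 to 6.93 (median 6.54) against 5.10 to 5.83 (median 5.33) and fell by 1.00 ± 0.26 (adjusted p = 0.0298). In both genes the lowest formulation arrays overlapped the highest nano ZnO arrays. Among clock genes that were not called, Per2, a period protein, was at 0.46 ± 0.19, Usp2, a clock-driven deubiquitinase, at 0.89 ± 0.27, and Nr1d2 and Nr1d1, which encode the REV-ERB receptors, at 0.56 ± 0.21 and -0.41 ± 0.48. Usp2 was called without formulation replicate 5 (1.07) or nano ZnO replicate 2 (1.00). The E-box was found in the promoters of 2 of the 5 genes that rose (Ciart and Tef), the D-box in 1 of 5 (Per3), and the REV-ERB and ROR half-site in both genes that fell. Tef and Arntl have 2 windows each, and a gene was counted if either window matched, whereas the shares over all promoters are per window. For Arntl only 1 of its 2 windows held the half-site.

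The list's 7 calls became 4 with array width as a covariate, 2 without formulation replicate 1 or nano ZnO replicate 6, 3 without nano ZnO replicate 1 and 4 without formulation replicate 2 or nano ZnO replicate 4. Calls of Nfil3 and Tef held in all 12 fits that left out 1 array. The call was lost in 9 of them for Dbp (0.93 to 1.22), in 6 for Arntl (-1.01 to -0.89), in 5 for Per3 (0.57 to 0.67) and in 4 for Hlf (0.24 to 0.29), and for Ciart without formulation replicate 1 (1.10) or nano ZnO replicate 6 (1.14). With the clock score as a covariate, which is built from these same genes, 0 of 18 stayed called, with Ciart at 0.35 and Dbp at -0.03. Untreated livers lay on the far side of formulation from nano ZnO for Ciart, at 4.94 in untreated, 5.91 in formulation, 7.19 in nano ZnO and 7.54 in micro ZnO. Arntl, in the same order, averaged 7.08, 6.41, 5.41 and 5.59.

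**Figure D3:**
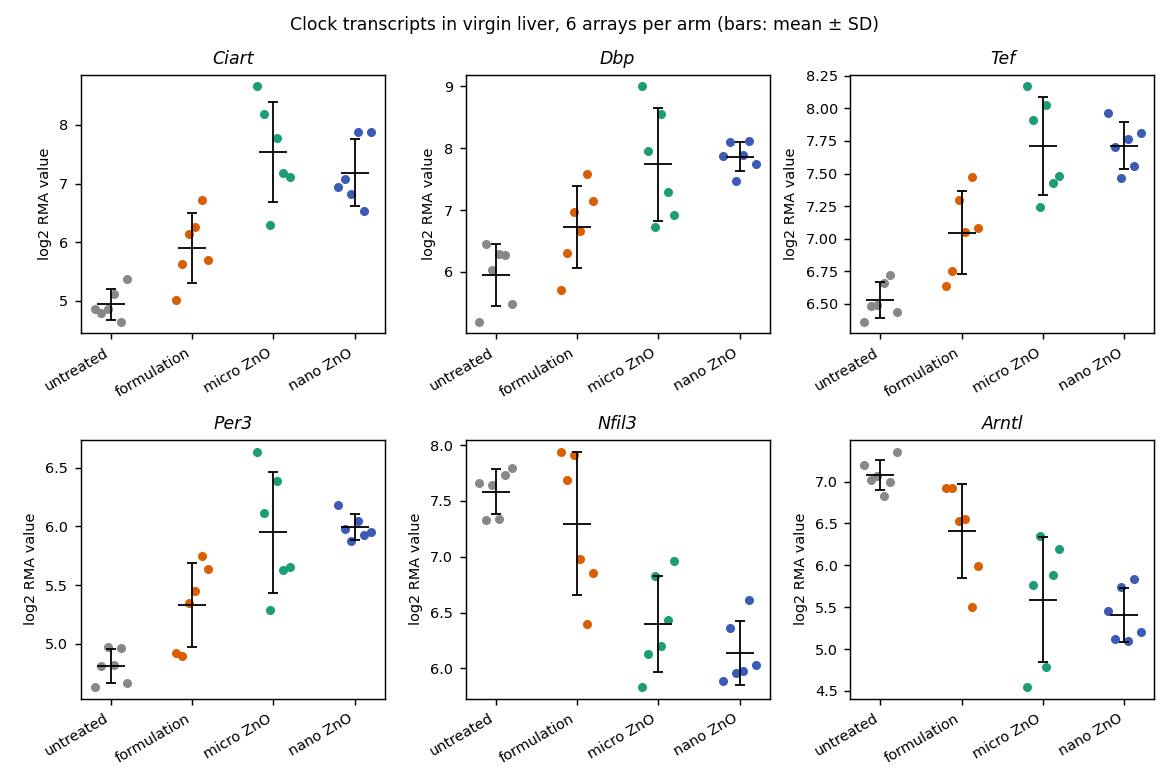
Log2 RMA values of Ciart, Dbp, Tef, Per3, Nfil3 and Arntl on the vertical axes, with 1 point per mouse in the 4 virgin arms and a bar at the mean ± SD of 6 arrays. Formulation means lie between untreated and nano ZnO in each panel, and formulation and micro ZnO points are more widely spread than nano ZnO points.

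Nampt, Nmrk1 and Wee1 were among the 15 largest rises and on no clock list. Nampt, the rate-limiting enzyme of NAD salvage and a clock-controlled gene, ranged over 5.92 to 7.22 (median 6.54) in formulation and 7.21 to 8.08 (median 7.42) in nano ZnO. It rose by 1.00 ± 0.20, 2.00-fold (adjusted p = 0.00711), with 4 of 6 nano ZnO arrays above every formulation array. Nmrk1, a nicotinamide riboside kinase of the same NAD pathway, ranged over 5.31 to 6.09 (median 5.54) against 6.17 to 6.97 (median 6.39) with no overlap and rose by 0.87 ± 0.16 (adjusted p = 0.00503). Both calls held with each array left out, but Nampt lost its call with array width as a covariate (0.75) and Nmrk1 with the clock score (0.72). Wee1, a mitotic kinase under clock control in liver, rose by 0.81 ± 0.22 (adjusted p = 0.0417) and lost its call in 9 of 12 such fits (0.69 to 0.86), with array width (0.81) and with the clock score (0.33).

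Cholesterol synthesis transcripts rose. Of 19 measured genes, 7 rose, none fell and 12 were not called, a share of 36.8% against 2.52% higher over all probe sets, and the median change was 0.31. Idi1, which isomerises isopentenyl diphosphate, ranged over 9.07 to 10.01 (median 9.73) in formulation and 10.15 to 11.03 (median 10.68) in nano ZnO. The arms did not overlap, and Idi1 rose by 0.99 ± 0.15, 1.99-fold (adjusted p = 0.00120). A second probe set of Idi1 rose by 1.02. Msmo1, the sterol C4-methyl oxidase, ranged over 10.57 to 11.56 (median 11.15) against 11.55 to 12.39 (median 11.90), overlapping by 1 nano ZnO array, and rose by 0.81 ± 0.13 (adjusted p = 0.00278). Nsdhl, a dehydrogenase of the same demethylation, ranged over 8.67 to 9.20 (median 8.96) against 9.21 to 9.86 (median 9.43) with no overlap and rose by 0.54 ± 0.10 (adjusted p = 0.00545).

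The other rises of the pathway were smaller. Hsd17b7 rose by 0.54 ± 0.15, Cyp51, the lanosterol demethylase, by 0.49 ± 0.13, Fdft1, squalene synthase, by 0.46 ± 0.12, and Tm7sf2, a sterol reductase, by 0.31 ± 0.08. Sqle, squalene epoxidase, was at 0.48 ± 0.16 (adjusted p = 0.106) and Hmgcs1, HMG-CoA synthase, at 0.47 ± 0.14 (adjusted p = 0.0588), both without a call. Fdps, farnesyl diphosphate synthase, was at 0.19 ± 0.11 and Insig1, the SREBP retention factor, at -0.21 ± 0.15, again without a call. CCAAT was found in all 6 promoters of the called genes that could be matched, with no entry for Fdft1. Among called clock genes it was in 4 of 5 that rose and 2 of 2 that fell. The immediate early genes that fell had it in 3 of 5 matched promoters. Over all promoter windows the share was 37.4%. Idi1, Msmo1 and Nsdhl kept their calls in every alternative that was run, single arrays left out included. Hsd17b7 and Tm7sf2 each lost it in 8 of 12 fits without 1 array (0.44 to 0.58 and 0.26 to 0.32), Fdft1 in 7 (0.37 to 0.46) and Cyp51 in 5 (0.40 to 0.50). Sqle was called without nano ZnO replicate 5 (0.59), and Hmgcs1 was called in 4 of 12 such fits (0.53 to 0.55). The list's 7 calls became 3 with array width as a covariate, 3 with the clock score, 3 after a further quantile normalization and 3 on the 12 arrays alone. They became 4 without formulation replicate 1 and 3 without formulation replicate 2, 5 or 6 or nano ZnO replicate 1 or 6. The untreated mean of Idi1 was 9.75 and the micro ZnO mean 10.36, against 9.66 in formulation and 10.66 in nano ZnO.

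Bile acid genes gave 3 rises, no fall and 18 genes not called of 21, a share of 14.3% against 2.52% higher over all probe sets, with a median of 0.15. Cyp7a1, which catalyses the first and limiting step from cholesterol to bile acids and is itself under clock control, ranged over 9.28 to 10.92 (median 9.59) in formulation and 10.13 to 11.01 (median 10.80) in nano ZnO. Formulation replicate 5, at 10.92, lay among the nano ZnO arrays, and the other 5 formulation arrays were at 9.28 to 9.80. Cyp7a1 rose by 0.95 ± 0.24 (adjusted p = 0.0248) and lost its call in 4 of 12 fits without 1 array (0.86 to 0.93). Nr1h4, the bile acid receptor FXR, ranged over 7.24 to 7.65 (median 7.41) against 7.79 to 7.97 (median 7.87) with no overlap and rose by 0.45 ± 0.09 (adjusted p = 0.00711). Slco1b2, a bile acid and anion uptake carrier, rose by 0.39 ± 0.09 (adjusted p = 0.0138). With array width as a covariate 0 of the 3 stayed called, and 1 of the list was called with the clock score and 1 on the 12 arrays alone.

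Fatty acid oxidation and other PPARA-linked genes also rose. Of 37 measured, 7 rose, none fell and 30 were not called, 18.9% against 2.52% higher over all probe sets, with a median of 0.15. Hadhb, the thiolase subunit of the mitochondrial trifunctional protein, ranged over 8.58 to 9.15 (median 8.97) in formulation and 9.23 to 9.57 (median 9.46) in nano ZnO, with no overlap, and rose by 0.51 ± 0.08 (adjusted p = 0.00104). Slc25a20, the mitochondrial carnitine-acylcarnitine carrier, ranged over 8.10 to 8.63 (median 8.35) against 8.50 to 8.95 (median 8.81) and rose by 0.44 ± 0.09 (adjusted p = 0.0102). The nuclear receptor gene Ppara ranged over 7.42 to 8.14 (median 7.66) against 8.01 to 8.64 (median 8.33), with 4 of 6 nano ZnO arrays above every formulation array, and rose by 0.58 ± 0.14 (adjusted p = 0.0195). Cyp4a31, a fatty acid omega-hydroxylase, rose by 0.86 ± 0.21, and Eci2, Decr2 and Acadl, enzymes of unsaturated and long-chain acyl-CoA oxidation, by 0.37 ± 0.10, 0.31 ± 0.08 and 0.24 ± 0.06.

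Bbox1, the last enzyme of carnitine synthesis and not on that list, was among the clearest rises, from 8.72 to 9.38 (median 9.25) to 9.69 to 10.12 (median 10.02) with no overlap. It changed by 0.80 ± 0.10 (adjusted p = 0.000170). Acadm, the medium-chain dehydrogenase, was at 0.20 ± 0.08, and Cpt1a, which admits fatty acids to mitochondria, at 0.41 ± 0.14, and neither was called, although all 6 nano ZnO values of Acadm lay above every formulation value. Pdk4, a kinase that shuts off pyruvate oxidation, went the other way without a call, at -1.51 ± 0.47 (adjusted p = 0.0733). Its formulation replicate 3 was at 9.84 and the other 5 at 5.39 to 6.20, against 4.56 to 5.35 in nano ZnO, so the arms did not overlap. Pdk4 was called at -0.84 without that array, at -1.73 without formulation replicate 4 and at -2.04 with array width as a covariate. Cyp4a14, a second omega-hydroxylase, was at 1.07 ± 0.41 and not called, with nano ZnO replicate 4 at 10.73. Calls of Hadhb, Slc25a20 and Bbox1 held with each array left out. Ppara lost its call without formulation replicate 2 (0.54) or nano ZnO replicate 1 (0.51), and Acadl without formulation replicate 2 (0.23) or nano ZnO replicate 5 (0.22) or 6 (0.23). Eci2 lost it in 9 of 12 such fits (0.32 to 0.40), Cyp4a31 in 5 (0.73 to 0.87) and Decr2 in 5 (0.27 to 0.31). The list's 7 rises became 3, with 1 fall, when array width was a covariate, 2 with the clock score, 4 after a further quantile normalization and 4 on the 12 arrays alone. They became 4 without formulation replicate 1 or nano ZnO replicate 1, 4 or 5, and 3 without formulation replicate 2 or nano ZnO replicate 6. With the clock score Ppara was at 0.32, Cyp4a31 at 0.51, Eci2 at 0.19, Decr2 at 0.14 and Acadl at 0.19, all without a call. Formulation was the low arm for Hadhb, at 8.93 against 9.46 in untreated, 9.48 in micro ZnO and 9.44 in nano ZnO.

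**Figure D4:**
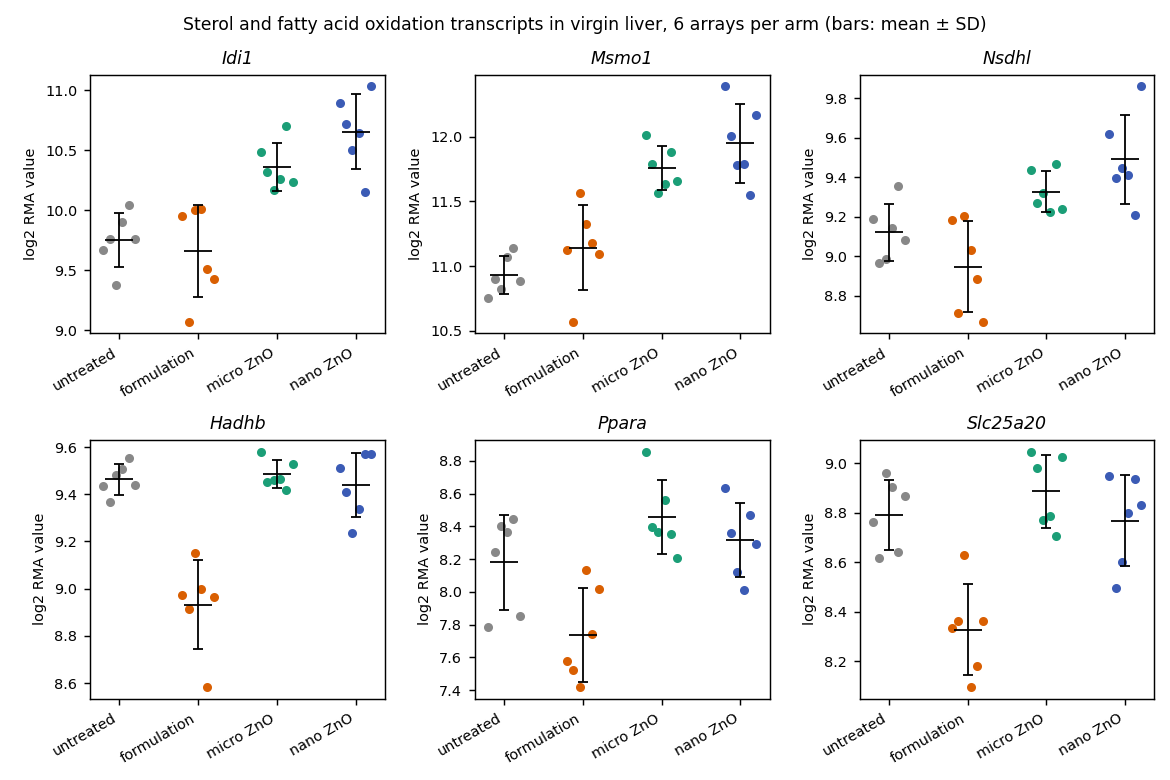
Log2 RMA values of Idi1, Msmo1, Nsdhl, Hadhb, Ppara and Slc25a20 on the vertical axes, with 1 point per mouse in the 4 virgin arms and a bar at the mean ± SD of 6 arrays. Nano ZnO points lie above all formulation points for Idi1, Nsdhl and Hadhb, and formulation has the lowest mean of the 4 arms for Nsdhl, Hadhb, Ppara and Slc25a20.

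Respiratory chain and ATP synthase subunits gave 4 rises, no fall and 27 genes not called of 31, a share of 12.9% against 2.52% higher over all probe sets, with a median of 0.09. As these genes are strongly expressed, the 2.52% is a low standard for them. Cyc1, cytochrome c1 of complex III, ranged over 9.39 to 9.68 (median 9.58) in formulation and 9.75 to 10.04 (median 9.85) in nano ZnO with no overlap and rose by 0.31 ± 0.07 (adjusted p = 0.0125). The ATP synthase gamma subunit gene Atp5c1 rose by 0.27 ± 0.06, and the complex I subunit genes Ndufb6 and Ndufa9 by 0.34 ± 0.08 and 0.38 ± 0.09. Ndufa9 lost its call without nano ZnO replicate 6 (0.37). Of 29 ribosome biogenesis estimates 27 were above 0, all from the same arrays and so not independent. Their median was 0.16, against -0.0046 over all tested probe sets. Of the 29 genes 3 rose, 10.3% against 2.52% higher over all probe sets. These were Dkc1, the pseudouridine synthase of the small nucleolar particles, at 0.41 ± 0.09, and Pes1 and Nop14, factors of large and small subunit assembly, at 0.30 ± 0.07 and 0.31 ± 0.08. Pes1 lost its call without formulation replicate 2 (0.27) or 6 (0.29) or nano ZnO replicate 6 (0.25), and Nop14 in 9 of 12 fits without 1 array (0.27 to 0.33). With array width as a covariate, and on the 12 arrays alone, 0 members of either list were called, with Dkc1 at 0.28, Pes1 at 0.18 and Nop14 at 0.17 in the first of these. The clock score as a covariate gave 8 respiratory chain rises, as did leaving out nano ZnO replicate 3. Ribosome biogenesis gave 6 without formulation replicate 3 and 1 without formulation replicate 2 or 6 or nano ZnO replicate 6.

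Sex-biased and drug-metabolising genes of the hepatocyte rose in part. Of 20 male-biased genes, 4 rose, none fell and 16 were not called, a share of 20% against 2.52% higher over all probe sets, with a median of 0.16. Keg1, a gene of the glycine N-acyltransferase family, had the smallest adjusted p among the genes named here. It ranged over 6.57 to 7.35 (median 6.97) in formulation and 7.81 to 8.29 (median 7.99) in nano ZnO. The arms did not overlap, and Keg1 rose by 1.03 ± 0.13, 2.05-fold (adjusted p = 0.000158). Hsd3b2, a hydroxysteroid dehydrogenase, ranged over 4.89 to 5.93 (median 5.44) against 5.80 to 7.11 (median 6.20) and rose by 0.90 ± 0.19 (adjusted p = 0.0108), and the glucuronosyltransferase genes Ugt2b38 and Ugt2b1 rose by 0.44 ± 0.08 and 0.40 ± 0.11. Ugt2b genes are near-identical copies whose probes may share signal. With array width as a covariate 2 of the list were called. Keg1 averaged 8.53 in untreated livers and Hsd3b2 7.33, so nano ZnO means of 8.02 and 6.32 lay between formulation and untreated.

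Of 13 female-biased genes, 2 rose and 11 were not called, a share of 15.4% against 2.52% higher over all probe sets. Fmo2, a flavin monooxygenase, ranged over 6.37 to 7.03 (median 6.87) in formulation and 7.29 to 8.50 (median 7.68) in nano ZnO with no overlap and rose by 1.01 ± 0.20 (adjusted p = 0.00735). Abcd2, a peroxisomal fatty acid transporter, rose by 0.76 ± 0.18, a call lost without formulation replicate 1 (0.61) or 2 (0.68). With the clock score as a covariate 0 of the 13 were called, with Fmo2 at 0.75 and Abcd2 at 0.34. Of 27 cytochrome P450 genes of families 1 to 3, 3 rose (11.1%, against 2.52% higher over all probe sets) and 24 were not called. These were Cyp2c39, Cyp2c54 and Cyp2c50, close paralogs that oxidise fatty acids and drugs, at 0.33 ± 0.07, 0.34 ± 0.07 and 0.41 ± 0.08, each with no overlap between the arms. Probes of close paralogs may share signal, so these genes need not be separate evidence. None of these 3 was called when the clock score was a covariate (0.30, 0.29 and 0.37), where 1 other gene of the list was. With array width 1 of the list was called, and 6 were called without nano ZnO replicate 3. Ugt2b1 lost its call in 6 of 12 fits without 1 array (0.31 to 0.42). The remaining large rises were Dsg1c, a desmoglein of cell junctions, at 0.87 ± 0.15 with no overlap, and Meiob, a meiotic recombination factor, at 0.76 ± 0.19, whose call was lost in 4 of 12 such fits (0.56 to 0.75).

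Insulin- and glucose-linked genes gave few calls. Igfbp1, a secreted IGF-binding protein that insulin represses and stress induces, ranged over 9.96 to 11.74 (median 10.87) in formulation and 8.69 to 11.14 (median 9.54) in nano ZnO, with 5 of 6 nano ZnO arrays below every formulation array. It fell by 1.28 ± 0.33 (adjusted p = 0.0310), and the call was lost in 9 of 12 fits without 1 array (-1.32 to -1.10). Irs2, an insulin receptor substrate, fell by 0.61 ± 0.16 (adjusted p = 0.0295), with the call lost in 6 of 12 (-0.62 to -0.50). With these, 2 of 17 gluconeogenesis and glycogen genes fell (11.8%, against 0.722% lower over all probe sets) and none rose. With array width or the clock score as a covariate 0 were called. Pck1, the gatekeeper of gluconeogenesis, was at -0.04 ± 0.22 and G6pc, glucose-6-phosphatase, at -0.56 ± 0.24, neither of them called. Nr3c1, the glucocorticoid receptor gene, rose by 0.35 ± 0.09. Of 20 glucocorticoid-responsive genes it was the 1 rise and Igfbp1 the 1 fall (10%, against 3.25% over all probe sets). Nr3c1 lost its call in 5 of 12 fits (0.29 to 0.35).

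Fatty acid synthesis gave 1 rise and 1 fall of 20 genes (10%, against 3.25% over all probe sets). Fads2, a desaturase of polyunsaturated fatty acids, rose by 0.41 ± 0.11, and Mlxipl, the carbohydrate-responsive factor ChREBP, fell by 0.36 ± 0.10. Sod2, mitochondrial superoxide dismutase, at 0.28 ± 0.08, was the 1 called of 26 NRF2 and antioxidant genes, Iigp1, an interferon-induced GTPase, at 0.53 ± 0.14, the 1 of 25 interferon genes, Psmb4, a proteasome subunit, at -0.29 ± 0.06, the 1 of 31 proteasome genes, and Cdc6, a replication licensing factor, at -0.33 ± 0.09, the 1 of 28 cell cycle genes. These shares lie close to the 3.25% over all probe sets. None was called among 17 heat shock, 29 endoplasmic reticulum stress, 18 urea cycle and amino acid, and 30 cytokine and NF-kB genes. Calls were lost in 7 of 12 fits without 1 array for Fads2 (0.35 to 0.42), 9 for Mlxipl (-0.38 to -0.30), 9 for Sod2 (0.21 to 0.30), 6 for Iigp1 (0.40 to 0.54) and 8 for Cdc6 (-0.34 to -0.28), and in none for Psmb4.

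Zinc handling genes were compared between sunscreen with zinc oxide nanoparticles and sunscreen without. Of 24 measured, 1 fell, none rose and 23 were not called, a share of 4.17% that is close to the 3.25% over all probe sets, with a median of 0.03. At an unadjusted p under 0.05 in limma, 5 of 24 were higher and 2 lower, where 10.5% were higher and 7.08% lower over all probe sets. The metallothionein genes Mt1 and Mt2, which encode zinc-binding proteins and rise with free zinc, glucocorticoids and inflammation, were not called. Mt1 ranged over 11.58 to 12.65 (median 12.11) in formulation and 11.48 to 12.11 (median 11.93) in nano ZnO, and Mt2 over 11.84 to 13.10 (median 12.37) against 11.42 to 12.32 (median 11.91). The arms overlapped in both. The differences were -0.33 ± 0.19 (95% interval -0.73 to 0.07, adjusted p = 0.403) for Mt1 and -0.53 ± 0.28 (95% interval -1.10 to 0.04, adjusted p = 0.328) for Mt2, so that rises above 0.07 and 0.04 lie outside the intervals. Untreated means were 10.45 and 10.45, below all 3 sunscreen arms, of which micro ZnO was at 11.98 and 12.25.

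Slc30a1, which exports zinc from the cell and is induced by zinc through MTF1, ranged over 7.28 to 7.94 (median 7.46) against 7.67 to 7.98 (median 7.86) and was at 0.28 ± 0.11 without a call (adjusted p = 0.145). It was called at 0.36 without formulation replicate 3. Slc30a10, an exporter that carries manganese, ranged over 7.33 to 8.31 (median 7.74) against 6.85 to 7.52 (median 7.20), with 5 of 6 nano ZnO arrays below every formulation array. It fell by 0.65 ± 0.18 (adjusted p = 0.0427), the 1 called member of the list, and the call was lost in 9 of 12 fits without 1 array (-0.70 to -0.55). It was also lost when the clock score was a covariate (-0.06). The zinc importer Slc39a4 was at -0.32 ± 0.10 (adjusted p = 0.0830) and the hepatic importer Slc39a14, which inflammation induces, at -0.09 ± 0.15 (adjusted p = 0.820). Slc39a4 was called after a further quantile normalization (-0.38) and with array width as a covariate (-0.43).

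Acute-phase genes, the plasma proteins that liver makes under IL-6 and related signals, had no called member of 38, and 10 of 38 were lower at an unadjusted p under 0.05 against 1 higher. Over all probe sets 7.08% were lower and 10.5% higher at that level. The list median was -0.13. Saa2, which encodes a serum amyloid A protein, ranged over 7.93 to 12.31 (median 11.09) in formulation and 8.86 to 10.98 (median 9.37) in nano ZnO. Formulation replicate 4, at 7.93, was the lowest of all 12 arrays, and the other 5 were at 10.70 to 12.31. Saa1 had the same array at 6.41 and the others at 9.58 to 10.86, and Orm2, an alpha-1-acid glycoprotein, had it at 9.53 and the others at 11.11 to 11.68. With all arrays the differences were -1.22 ± 0.55 for Saa2 (adjusted p = 0.238), -0.91 ± 0.52 for Saa1, -0.47 ± 0.30 for Orm2 and -1.18 ± 0.37 for Lcn2, an iron-sequestering protein (adjusted p = 0.0760). Without formulation replicate 4, 6 of 38 acute-phase genes were called lower, among them Saa2 at -1.80, Saa1 at -1.52 and Lcn2 at -1.42. Over all 23410 probe sets, 161 were called lower in that fit. The array was picked out for its low Saa1, Saa2 and Orm2 values, so leaving it out moves these differences down. This fit is therefore no separate evidence of a fall. Untreated means were 6.83 for Saa2 and 5.61 for Saa1, below every formulation and nano ZnO array.

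Markers of other liver cell types gave few calls, but at 3.25% called over all probe sets, lists this short would give few in any case. Of the markers of each type, 0 of 17 were called for neutrophils, 0 of 20 for macrophages, 0 of 15 for stellate cells, 0 of 8 for bile duct cells, 0 of 17 for lymphocytes and 0 of 4 for red cells. Flt4, a receptor of sinusoidal and lymphatic endothelium, was the 1 called of 21 endothelial markers (4.76%), at -0.35 ± 0.09, a call lost without formulation replicate 1 (-0.33) or nano ZnO replicate 1 (-0.30). Mean neutrophil marker levels ran from 4.33 to 5.08 on formulation arrays and from 4.30 to 5.27 on nano ZnO arrays, and macrophage markers from 6.00 to 6.59 and from 5.84 to 6.43. All 8 bile duct markers were lower on average in nano ZnO, with a median of -0.14, a mean level of 4.95 to 5.09 in formulation and 4.85 to 5.04 in nano ZnO. Their part in the other results was not tested. In whole liver a lower share of a cell type and less of a transcript per cell cannot be told apart.

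Particle size was compared within the virgin experiment. No probe set of 23410 was called between nano ZnO and micro ZnO in limma (0%), with 1106 at an unadjusted p under 0.05. Micro minus formulation gave 1599 calls (6.83%), and as it shares the formulation arrays its values are set beside those of nano ZnO and not tested against them. For Idi1 micro minus formulation was 0.70 ± 0.15 and nano minus formulation 0.99 ± 0.15, for Ciart 1.63 ± 0.31 and 1.28 ± 0.31, and for Igfbp1 -2.66 ± 0.33 and -1.28 ± 0.33. The direct difference, nano minus micro, was 0.81 ± 0.29 for Jun, with a 95% interval of 0.21 to 1.41 and an adjusted p of 0.993. For Fos it was 0.35 ± 0.31 (interval -0.29 to 0.98), and for Idi1 0.29 ± 0.15 (interval -0.02 to 0.60). The absence of calls therefore does not show that both particle sizes gave the same levels.

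The same comparison in pregnant mice gave no call. Nano ZnO minus formulation in pregnant liver had 0 of 23410 called in limma (0%), with 718 at an unadjusted p under 0.05. Of the 30 genes with the largest virgin rises and falls, none was called in pregnant mice. Their virgin values were the basis of choice, so only the pregnant values are informative about the second experiment. Idi1 was at -0.05 ± 0.20 in pregnant mice and Keg1 at -0.10 ± 0.28, against 0.99 ± 0.15 and 1.03 ± 0.13 in virgin mice. Ciart was at -0.44 ± 0.59 and Dbp at -0.77 ± 0.52, with wide errors, as pregnant nano ZnO arrays spread from 4.27 to 7.96 for Ciart.

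The difference between the experiments was tested as an interaction, pregnant minus virgin. Of 23410 probe sets 2 were called (0.00854%), Jun at 2.40 ± 0.42 (adjusted p = 0.0218) and Fos at 1.94 ± 0.37 (adjusted p = 0.0425), and 2057 had an unadjusted p under 0.05. In pregnant mice Jun ranged over 5.12 to 5.79 (median 5.54) in formulation and 5.56 to 7.11 (median 6.48) in nano ZnO, a difference of 0.93 ± 0.27, opposite in sign to the virgin fall. Fos ranged over 4.50 to 5.16 (median 4.76) against 4.66 to 5.42 (median 5.14), a difference of 0.29 ± 0.15. Levels cannot be compared between the experiments, whose arrays have different medians. Leaving out 1 of the 24 arrays of these groups kept the interaction called in 16 fits for Jun (2.23 to 2.63 over all 24) and in 8 for Fos (1.76 to 2.27). Jun lost its call without virgin formulation replicate 1, virgin nano ZnO replicate 1, 5 or 6, pregnant formulation replicate 6 or pregnant nano ZnO replicate 1, 5 or 6. Neither was called with replicate number as a block or with trend and robust moderation. The other 28 genes were not called, among them Nfil3 at 1.53 ± 0.35 and Idi1 at -1.05 ± 0.26.

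**Figure D5:**
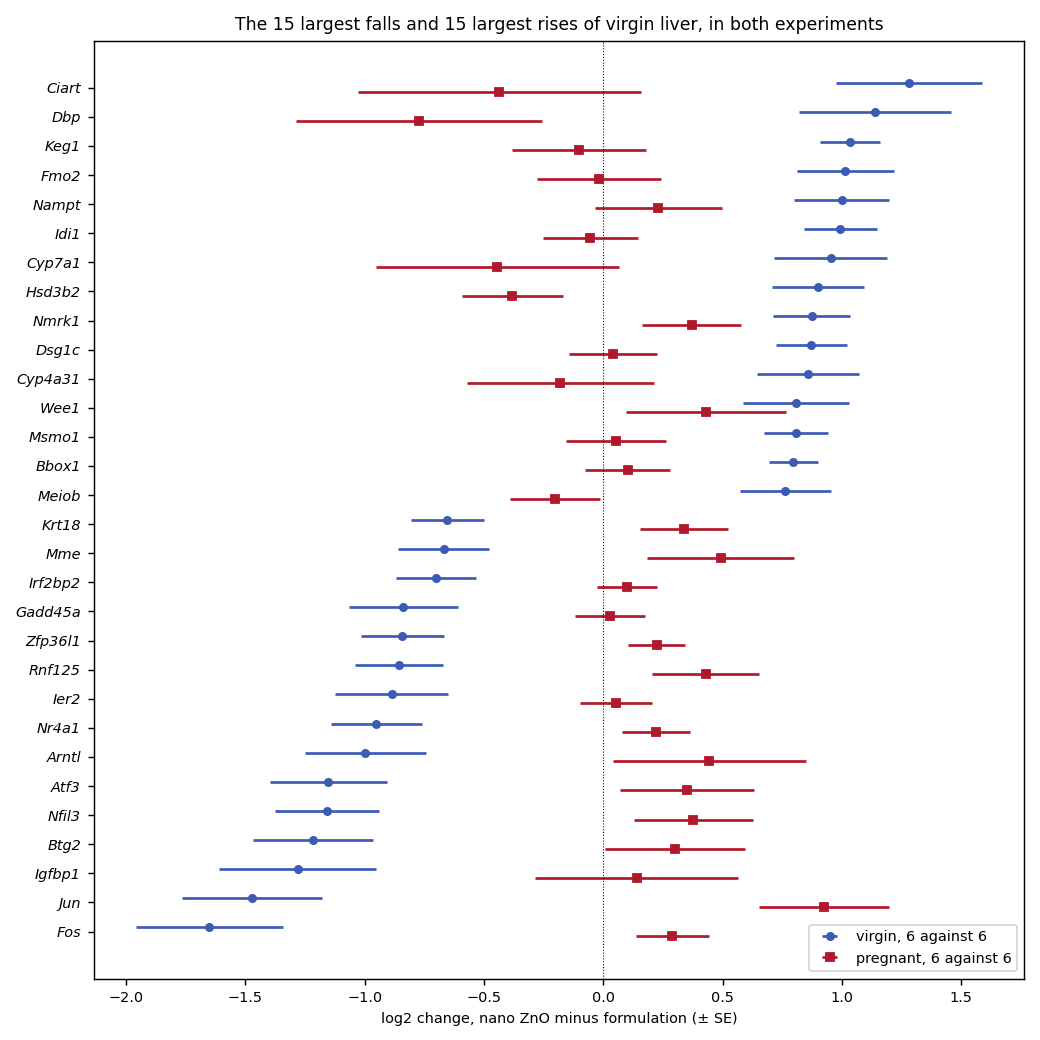
Log2 change with its SE, nano ZnO minus formulation, for the 15 largest rises and 15 largest falls of virgin liver, with circles for virgin mice and squares for pregnant mice (6 against 6 arrays in each). Genes were chosen by the virgin values, whose distance from 0 is therefore part of the choice. Pregnant squares lie closer to 0 for most genes, with Jun at 0.93 and Dbp at -0.77 the farthest out.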

How the data were processed

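Values are the log2 intensities that the authors deposited. Per the submitters' processing notes they were made with RMA, which corrects background, quantile normalizes and summarizes probes. The version and the joint or separate normalization of the experiments are not given in the sources used here. The table held 35512 probe sets, of which 21789 had 1 gene symbol, 1621 several and 12102 none. The 23410 with a symbol were tested, and 21698 matched the RefSeq gene table of GRCm38.p6 by Entrez identifier. Detection calls and scan dates were not used, and precision is limited by how many arrays there are.

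A linear model with the 4 virgin arms was fitted to the 24 virgin arrays in R 4.3.3 with limma 3.58.1 and its moderated variances. P-values were two-sided and adjusted by Benjamini-Hochberg over the 23410 probe sets, and "called" means an adjusted p under 0.05. Values after ± are SE of a log2 change. Pregnant arrays (22) were fitted separately, and the interaction came from a model of all 46. For a gene with several probe sets, the one with the highest mean was used. Members and the 31 gene lists were chosen with earlier results of these data known, and the lists overlap. The text draws on the 15 largest rises and falls among called genes with 1 symbol, 6 zinc genes, and up to 8 called members and 4 well-expressed members without a call per list. Saa1, Saa2, Orm2, Egr1, Usp2, Pdk4, Per2, Cyp4a14, Cpt1a and Sqle were named after their values were seen. The clock score takes Dbp, Tef, Hlf, Per1, Per2, Per3, Ciart, Nr1d1 and Nr1d2 minus Arntl, Clock and Nfil3 (Npas2 was planned too but matched no probe set).

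Other settings were tried 1 at a time. They left out dim probe sets under the 40th percentile of the mean, tested every probe set, used robust moderation with an intensity trend, weighted the arrays, or normalized by quantiles once more. Further settings were replicate number as a block, array width or the clock score as a covariate, the 12 arrays alone, a 1.5-fold minimum and each array left out. Leaving out arrays in the interaction and the other measures of array width were added after seeing the data. Replicate numbers were checked for pairing through the deviations of same-numbered arrays from their group means. On simulated data with 100 probe sets changed 1.5-fold and 100 changed 2-fold among 23410, the virgin comparison found 90 and 100 with 9 false calls, nano minus micro 90 and 99 with 9, the pregnant comparison 84 and 98 with 8, and the interaction 60 and 96 with 11. The simulated noise was normal and independent for each probe set, without shifts shared across an array or outlying arrays. These rates therefore need not hold for the real arrays. Plots used Python 3.11.15 and matplotlib 3.10.9.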

Additional observations from a re-analysis of the deposited data

Results flagged for a closer look

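Values that lay apart from the other 5 arrays of their group were found in 16 of 192 groups of 6 arrays, 2 per gene named above, where chance gives about 1 in 20. Of these genes 10 were named after their values were seen, and without them it was 11 of 172. The gap to the nearest array exceeded Dixon's critical share of the range for 6 values, 0.625.

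Several of these fell on the same arrays. Formulation replicate 4 had the lowest acute-phase values of its group, at 6.41 for Saa1, 7.93 for Saa2 and 9.53 for Orm2. Formulation replicate 5 had the highest value of its group for Cyp7a1, at 10.92, and the lowest for Meiob (4.54), Irf2bp2 (7.67), Ugt2b1 (9.20) and Ndufb6 (8.60). Formulation replicate 3 was highest for Pdk4, at 9.84, and lowest for Zfp36 (7.56) and Mlxipl (7.47), and formulation replicate 1 was lowest for Fmo2, at 6.37. In nano ZnO, replicate 6 was highest for Slc39a14 (9.28) and Dkc1 (6.52), and replicate 4 for Cyp4a14 (10.73) and Dusp1 (9.93).

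For 2 genes the nano ZnO minus formulation difference was called different between the 2 experiments by the test of the interaction in limma. Pregnant minus virgin was 1.94 for Fos and 2.40 for Jun on the log2 scale.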

How the results depend on the processing

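The virgin count of 760 became 344 with replicate number as a block, 156 with array width as a covariate, 189 on the 12 arrays alone and 68 at 1.5-fold or more, and ran from 251 to 1115 with 1 array left out. It was 990 without dim probe sets, 712 over all probe sets, 922 with trend and robust moderation, 767 with array weights, 760 after quantile normalization and 582 with the clock score. Of 69 called genes named, 69 kept their direction and 32 their call in all fits without 1 array, and 8 kept the call under every alternative. Array width ended 46 of these calls, the clock score 45, the 12 arrays alone 40 and the block 30. Dbp turned to -0.029 with the clock score, which contains it.

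Nano minus micro gave 0 calls in limma under each alternative run for it (1106 at an unadjusted p under 0.05). The pregnant comparison gave 1 after quantile normalization, A3galt2 at -0.44, named after its value was seen, and 0 under the other alternatives run for it. The clock score and single arrays left out were not run for these 2 comparisons. The interaction count of 2 became 4 without dim probe sets, 4 with array weights, 0 with trend and robust moderation, 0 with the replicate block and 0 to 7 without 1 array. Array width differed by 0.09 over probe sets with a symbol and by 0.03 as a standard deviation, neither past 0.05.

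Replicate numbers did not pair the arrays. Deviations of same-numbered arrays correlated at -0.30 to -0.04, and no nano ZnO array correlated best with its own number. Without detection calls, dim transcripts cannot be told from background.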
